A study of Equus caballus with 24 samples.

Results

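The genes described here are 6 genes at loci that have been associated with body height in horses, namely LCORL, NCAPG, HMGA2, ZFAT, LASP1 and TBX3. They were taken by gene name, and each name was found once among the 24232 genes of the count table and the 24248 genes of the RPKM table. The RNA came from the pituitary and from the epiphysis of a long bone of healthy female horses killed at a slaughterhouse, 6 Debao ponies (DPs), a small breed, and 6 Mongolian horses (MHs), a taller one. With 3 libraries per group there were 24 libraries in 8 groups, the juvenile (under 3 years) and adult (over 3 years) pituitary of DPs (DPPJ and DPPA) and of MHs (MHPJ and MHPA), and the juvenile and adult long bone of DPs (DPLBJ and DPLBA) and of MHs (MHLBJ and MHLBA). No horse was treated and no genotype at these loci was given in the sources used here, so the groups differ by breed, stage and tissue. The question put to the 6 genes was whether their RNA differed between the breeds in each tissue at each stage.

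A locus found by association is a stretch of chromosome, and the genes named for it are candidates that may act through their protein or their level. LCORL encodes a DNA-binding transcription factor that associates with Polycomb repressive complexes, and NCAPG encodes a subunit of condensin I, which compacts chromosomes in mitosis. These neighbouring genes share the height locus on chromosome 3. HMGA2 encodes an architectural chromatin protein of growing and embryonic cells, ZFAT a zinc finger transcription factor known from blood cells and thyroid autoimmunity, LASP1 an actin-binding adaptor of focal adhesions, and TBX3 a T-box transcription factor of limb and hypothalamus-pituitary development. In a long bone, growth takes place in the cartilage growth plate, and the pituitary sets it from a distance through growth hormone.

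Between 11433209 and 27007342 reads were counted on genes per library. Not all libraries held the same cells. Of 11 listed genes of anterior pituitary hormone cells, 9 were found, and their summed level, in CPM (reads relative to the TMM-adjusted library total), was 29800 to 34400 in DPPJ but 0.492 to 8.91 in MHPJ, where TSHB was at 0 reads in all 3 libraries. Among adult pituitaries the sum was 36.1 in DPPA replicate 1 and 1.32 in MHPA replicate 1, against 11300 to 26500 in the other 4 libraries. These 5 hormone-poor libraries had 7100 to 21300 CPM of 9 neural lobe and glia genes, against 79.5 to 4860 in the other 7. In the juvenile pituitary, breed and hormone content therefore cannot be told apart. MHPJ replicate 2 also held 1380 CPM of striated muscle genes, against at most 19.4 in the other pituitary libraries. It was likewise highest in erythroid (268 CPM, at most 1.14 in the others) and adipocyte genes (170 CPM, at most 15.6). The same held for endothelial (921 CPM, at most 317) and neutrophil genes (80.4 CPM, at most 3.39). Among long bones, 8 cartilage genes summed to 211, 6630 and 24400 CPM in DPLBJ and 1290 to 26600 CPM in DPLBA, against 31.9 to 180 in MHLBJ and 45.2 to 2020 in MHLBA. DPLBJ replicates 2 and 3 held 6980 and 3360 CPM of erythroid genes, against 0.329 in DPLBJ replicate 1. In such bulk tissue, fewer cells of a type and less RNA per cell cannot be told apart.

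Levels are given as RPKM, reads divided by gene length and by library size, so that genes can be set side by side. Over the 24 libraries the median RPKM was 78.9 for LASP1, 17.5 for LCORL, 4.61 for ZFAT, 2.76 for TBX3, 2.14 for HMGA2 and 1.96 for NCAPG. LASP1 was thus the most abundant of the 6 on this scale, above 96.4% of the genes in the table, and LCORL stood above 82.2%. The highest library was 192 times the lowest for NCAPG, 97.6 times for TBX3 and 69.7 times for HMGA2, but 8.95 times for LCORL, 4.69 times for LASP1 and 3.61 times for ZFAT. The 3 genes with the wider ranges were the lower ones on RPKM. For HMGA2 the depth set the limit, since its gene model in the table is 213 bases long and only 501 reads fell on it in all 24 libraries, against 4177 on TBX3 and 36257 on LASP1.

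**Figure D1:**
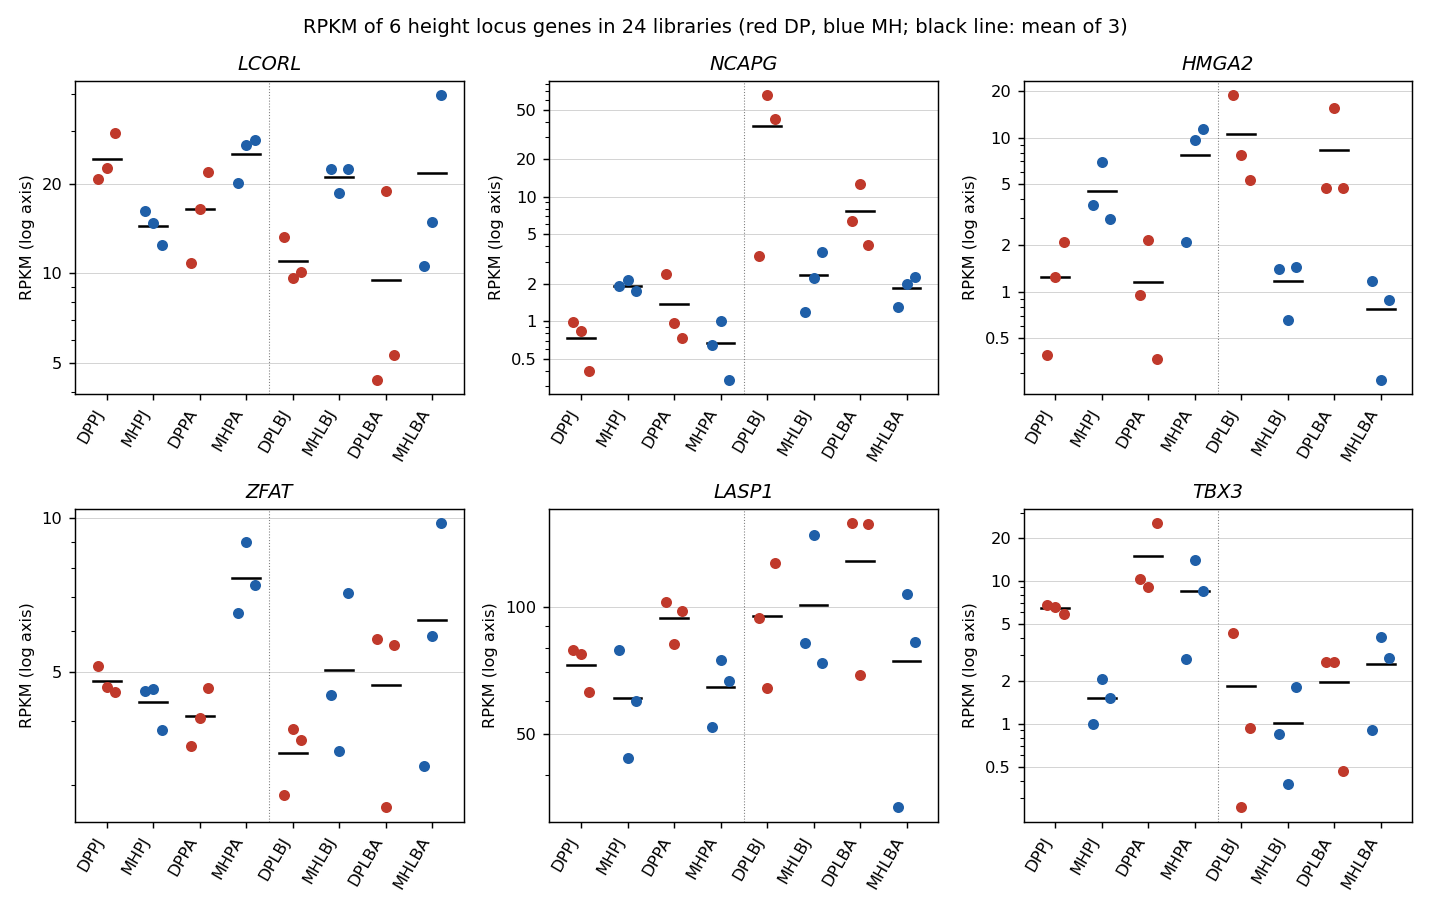
RPKM (log axis, a separate scale per gene) of the 6 genes in the 24 libraries, with 1 point per library, DPs in red, MHs in blue and the mean of each group of 3 as a black line. HMGA2 was low in DP and high in MH pituitaries and the other way round in the long bone, and NCAPG reached 65.28 in a juvenile DP long bone.

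Breeds were compared with edgeR's quasi-likelihood test on the reads of the 6 libraries of a pair of groups. A gene was called a differentially expressed gene (DEG) at an unadjusted P under 0.05 with more than a 2-fold difference, and p-values adjusted by Benjamini-Hochberg over all genes in the fit follow in brackets. A positive log2 fold change stands for a higher level in DPs. In the juvenile pituitary 3 of the 6 genes were DEGs (NCAPG, HMGA2 and TBX3), where 20.3% of all tested genes were. It was 1 of 6 in adult pituitaries (HMGA2; 2.93% of all tested genes), and NCAPG and HMGA2, 2 of 6, in long bones of juveniles (13.8%) and of adults (18.3%). HMGA2 was called in all 4, and it passed the filter on low reads there largely through the breed in which it was higher, so that these calls are not independent of the filter. All DP libraries lay on one side of all MH libraries in CPM for 4 of the 6 genes in juvenile pituitaries (39.7% of all tested genes) and 4 in adult ones (17.6%), and for 3 in juvenile (21.7%) and 2 in adult long bones (29.9%). By the adjusted p from edgeR's test, TBX3 in the juvenile pituitary was the only breed difference under 0.05, in a comparison where 10.7% of all genes passed. With 1 library left out, its adjusted p from this test reached 0.149. Of the 6, 0 passed in the other 3 comparisons, while 3, 3 and 2 of them, in the order of the adult pituitary, juvenile long bone and adult long bone, had an unadjusted P under 0.05, and 0.0348%, 0% and 2.24% of all genes passed. The adjusted p of DESeq2, a second count test, passed more of them, LCORL, NCAPG, HMGA2 and TBX3 (4 genes) in juvenile pituitaries, ZFAT and LASP1 (2 genes) in adult ones, and NCAPG and HMGA2 in long bones of either stage. The share of all genes that DESeq2 passed was not counted. These numbers therefore cannot be set against a share of all genes, and the shares above are those of edgeR.

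**Figure D2:**
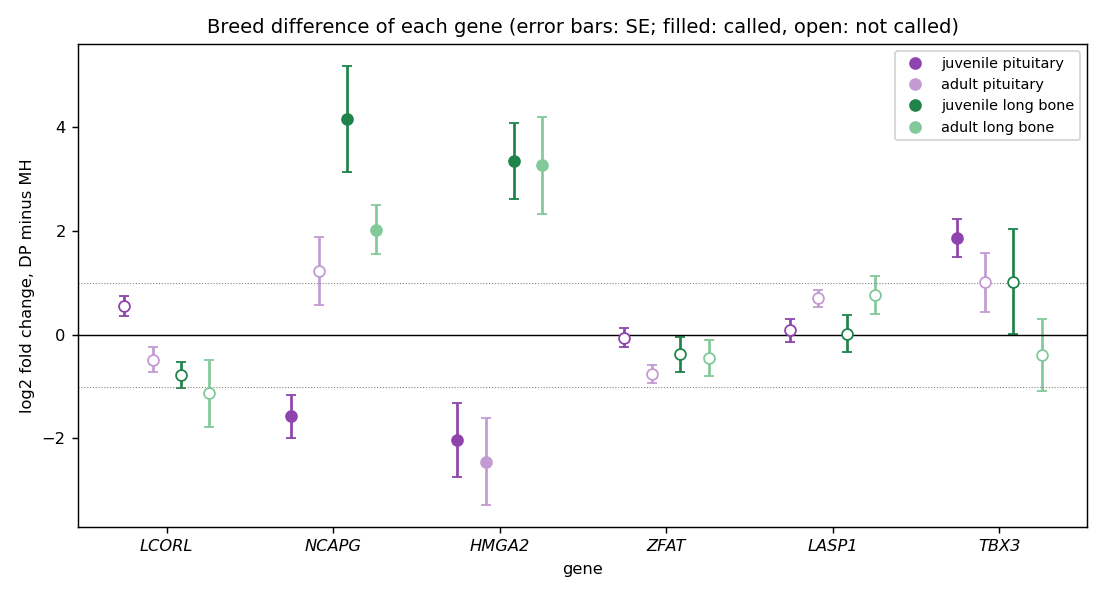
Log2 fold change (DP minus MH) of each gene in the 4 breed comparisons, with its standard error as the bar, filled where the gene was called and open where it was not; dotted lines mark a fold change of 2. The points of HMGA2 lie at -2.03 and -2.44 in the pituitary and at 3.35 and 3.26 in the long bone.

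The level of HMGA2 was below that of MHs in the pituitary of DPs and above it in their long bone, at both stages. In the juvenile long bone 72, 34 and 26 reads fell on HMGA2 in the DPLBJ libraries and 5, 4 and 8 in the MHLBJ libraries, so that every DP library lay above every MH library. In RPKM this was 10.6 ± 7.22 (SD, n = 3) against 1.17 ± 0.442, or 3.35 on the log2 scale (SE 0.732, adjusted p = 0.141, edgeR). In the adult long bone there were 22, 99 and 25 reads in DPLBA against 6, 2 and 3 in MHLBA, again without overlap, and the difference on the log2 scale was 3.26 (SE 0.928, adjusted p = 0.0963, edgeR). Both long bone calls held with each of the 6 libraries left out in turn, over a range of 2.63 to 3.71 in juveniles and 2.36 to 4.18 in adults. HMGA2 passed the filter on low reads in these fits largely through the DP libraries. The repeated calls are thus not independent of the filter either.

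Pituitary reads on HMGA2 went the other way, with 2, 7 and 13 in DPPJ and 18, 24 and 14 in MHPJ among juveniles. The breeds did not overlap, and the log2 fold change was -2.03 (SE 0.708, adjusted p = 0.115, edgeR). Adult pituitaries had 6, 14 and 2 reads in DPPA and 9, 40 and 46 in MHPA, which gave -2.44 on the log2 scale (SE 0.835, adjusted p = 0.515, edgeR). The adult libraries did not overlap in CPM, but DPPA replicate 2 (2.17 RPKM) and MHPA replicate 1 (2.11 RPKM) lay side by side. The pituitary calls did not hold with every library left out. They were lost without DPPJ replicate 1 or 2 or MHPJ replicate 2 in juveniles (log2 fold change -1.62, -2.04 and -1.52) and without DPPA replicate 1 or 3 or MHPA replicate 2 or 3 in adults (-2.35, -2.01, -2.33 and -2.09), each time with the direction kept. Without both hormone-poor adult libraries the gene was still called, at -2.78 (SE 0.807, adjusted p = 0.127, edgeR). In RPKM the hormone-poor libraries had 2.97 to 6.94 in MHPJ, 2.11 in MHPA replicate 1 and 0.96 in DPPA replicate 1, and the hormone-rich ones had 9.59 and 11.4 in MHPA replicates 2 and 3 and at most 2.17 in DPs. The part of the hormone content, and of the muscle and other cells in MHPJ replicate 2, in the difference was not tested.

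The difference between the tissues in the breed effect was tested as an interaction, a test added after the opposite directions had been seen. For HMGA2 it was -5.39 on the log2 scale in juveniles (SE 1.05, adjusted p = 0.0258, edgeR), where 22% of all tested genes had an interaction with P under 0.05 and over 1 in size, and -5.79 in adults (SE 1.35, adjusted p = 0.114), where 13.5% did. Both were called with each of the 12 libraries left out. HMGA2 passed the filter on low reads in these fits largely through the groups in which it was higher, so these calls are not independent of the filter. Between stages the breed effect on HMGA2 differed by 0.46 in the pituitary (SE 1.14, adjusted p = 0.834) and by 0.046 in the long bone (SE 1.5, adjusted p = 1; 4.17% of all tested genes had P under 0.05 and over 1 in size), so that at these counts no difference between the stages was detectable. In the order of mean RPKM, DPLBJ (10.6), DPLBA (8.35), MHPA (7.70) and MHPJ (4.52) came first, followed by DPPJ (1.25), MHLBJ (1.17), DPPA (1.17) and MHLBA (0.777). Each group overlapped with the next except MHPJ with DPPJ, while MHPA replicate 1 reached down among the lower groups.

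Of the listed relatives of HMGA2 and of the LIN28 and IGF2BP genes that act with it, 7 of 8 were found and 3 or 4 were tested per comparison. DEGs were 3 of 4 in juvenile pituitaries (20.3% of all tested genes) and 1 of 4 in adult ones (2.93%). In the long bone they were 1 of 3 in juveniles (13.8%) and 1 of 3 in adults (18.3%). IGF2BP3, an RNA-binding protein of fetal growth, was higher in DPs in adult pituitaries (log2 fold change 2.11) and in juvenile (1.80) and adult (1.94) long bones. Juvenile pituitaries of DPs had lower IGF2BP2 (-3.50) and HMGA1 (-1.40), the closest relative of HMGA2, and higher PLAG1 (1.36), a zinc finger factor that is itself a body size gene. All MHPJ libraries were hormone-poor, so in these values breed and hormone content cannot be told apart. IGF2BP2 and HMGA1 also varied within MHPJ (5.91 ± 5.67 and 42.4 ± 20 RPKM, SD, n = 3). The median log2 fold change of the list was 0.74 and 0.72 in the juvenile and adult long bone, against 0.053 and -0.035 over all tested genes, and it was -0.52 and 0.41 in the juvenile and adult pituitary, against -0.073 and -0.013.

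NCAPG was higher in DPs in the long bone at both stages and lower in DPs in the juvenile pituitary. In DPLBJ its RPKM was 3.34, 65.28 and 42.0, from 189, 4266 and 3059 reads, and in MHLBJ it was 1.19, 2.24 and 3.58, from 63, 202 and 292 reads. DPLBJ replicates 2 and 3 stood far above all other libraries. DPLBJ replicate 1 fell just below MHLBJ replicate 3 in RPKM and just above it in CPM (15.5 against 14.5). The log2 fold change was 4.16 (SE 1.02, adjusted p = 0.150, edgeR), and it was 3.30 to 4.69 with 1 library left out, called each time. In the adult long bone the RPKM was 6.35, 12.75 and 4.11 in DPLBA and 1.30, 1.98 and 2.26 in MHLBA. All adult DP libraries lay above all MH ones, and the difference was 2.02 on the log2 scale (SE 0.469, adjusted p = 0.0672, edgeR), called with each library left out.

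Other condensin genes were higher in the DP long bone as well. Of the 8 condensin I and II subunits, NCAPG included, 6 were DEGs in the juvenile long bone (13.8% of all tested genes). All 6 were up in DPs, and the median of the list was 2.01 on the log2 scale. They were NCAPH (2.68), NCAPD2 (2.16), SMC4 (2.07), SMC2 (1.94) and NCAPG2 (1.94) besides NCAPG, which had the largest fold change of the 8, and NCAPD3 (0.73) and NCAPH2 (0.92) of condensin II were not called. Summed over the 8 genes, the level was 446, 1720 and 1660 CPM in DPLBJ and 272, 344 and 348 CPM in MHLBJ. In the adult long bone NCAPH (2.16), NCAPG and NCAPG2 (1.21) were called (18.3% of all tested genes), and the median was 0.79. By edgeR's adjusted p, 0 of 8 were under 0.05 in juveniles and 1 of 8 in adults. Pituitary tests by edgeR called 0 of 8 in adults (2.93% of all tested genes), where 0 had an unadjusted P under 0.05. In juveniles they called NCAPG alone (20.3%). The medians were 0.16 and -0.45.

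Genes of the cell cycle at large were also higher. Of 20 proliferation genes, 18 were found. DEGs were 18 of 18 in the juvenile long bone (13.8% of all tested genes) and 15 of 18 in the adult long bone (18.3%). Each of these was up in DPs, and the medians of the list were 3.82 and 2.35. By edgeR's adjusted p, 0 and 2 of the 18 were under 0.05, against 0% and 2.24% of all tested genes. TOP2A, which untangles DNA in mitosis, was higher by 4.20 in juveniles and 2.42 in adults. CCNB1, the cyclin of mitotic entry, was higher by 4.58 and 2.74. In the pituitary 2 were called higher and 2 lower in DPs among 18 in juveniles (20.3% of all tested genes were called). In adults 1 was called higher among 16 (2.93%). Summed over the 18 genes, the level was 320, 2730 and 2640 CPM in DPLBJ and 151, 247 and 195 CPM in MHLBJ, and it was 595, 793 and 407 CPM in DPLBA and 143, 210 and 133 CPM in MHLBA. Over the 12 long bone libraries NCAPG followed this sum with Pearson's r of 0.974 and Spearman's rho of 0.902. Without the 2 libraries farthest from the median, DPLBJ replicates 2 and 3, r was 0.916. Within the 6 DP libraries r was 0.983 and within the 6 MH libraries, which spanned a narrower range, 0.397. These points share tissue and breed. The cartilage genes were also higher in most DP libraries, and the erythroid genes in DPLBJ replicates 2 and 3. Adipocyte genes, 6 of 7 found, were lower in juvenile DPs (6 of 6 called) and summed to 1690 to 4140 CPM in DPLBJ and 6680 to 8470 CPM in MHLBJ, and 6 endothelial genes (2 called lower) summed to 816 to 1400 and 2010 to 2120 CPM. The adult sums overlapped. Neutrophil genes, of which 3 of 7 were found, summed to 773 to 1150 CPM in DPLBA and 7.81, 5320 and 1070 CPM in DPLBJ, against 2.5 to 71.3 CPM in MH long bones. Osteoblast genes, 5 of 6 found (3 of 5 called higher in DPs at each stage), summed to 20000 to 29600 CPM in DPLBA and 2870 to 15500 CPM in MHLBA. Their juvenile sums overlapped, at 9530 to 30300 CPM in DPLBJ and 5410 to 23000 CPM in MHLBJ. The part of these cell types in the NCAPG and HMGA2 differences was not tested.

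**Figure D3:**
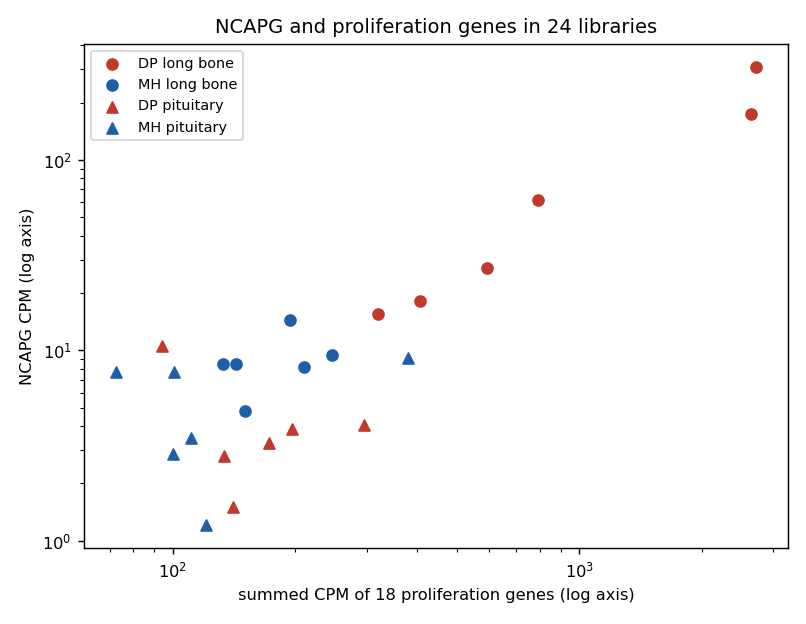
NCAPG level against the summed level of 18 proliferation genes (both in CPM, log axes), 1 point per library, circles for long bone and triangles for pituitary, DPs in red and MHs in blue. In the long bone the 6 DP libraries (320 to 2730 CPM on the x axis) lie above the 6 MH libraries (133 to 247 CPM), and the pituitary libraries show no such line.

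In the juvenile pituitary NCAPG was 0.98, 0.84 and 0.40 RPKM in DPPJ and 1.93, 2.13 and 1.74 RPKM in MHPJ. Every MH library was higher than every DP library, and the log2 fold change was -1.57 (SE 0.416, adjusted p = 0.0639, edgeR), called with each library left out. On log2(RPKM + 1) with limma it was -0.77, under the fold threshold, since that scale shrinks low levels. Adult pituitary levels of NCAPG were 2.40, 0.97 and 0.73 RPKM in DPPA and 0.65, 1.01 and 0.34 RPKM in MHPA, with overlap (log2 fold change 1.23, SE 0.663, adjusted p = 0.629). The highest adult value belonged to the hormone-poor DPPA replicate 1, and without both hormone-poor libraries the value was 0.56 (SE 0.581). The breed effect in the juvenile pituitary differed from that in the adult pituitary by -2.78 (SE 0.81, adjusted p = 0.166, edgeR; P under 0.05 and over 1 in size for 15.7% of all tested genes), and from that in the juvenile long bone by -5.73 (SE 1.18, adjusted p = 0.0292). In the order of mean RPKM, DPLBJ (36.9) and DPLBA (7.74) were followed by MHLBJ (2.34), MHPJ (1.93), MHLBA (1.85), DPPA (1.37), DPPJ (0.740) and MHPA (0.667). Each group overlapped with the next except DPLBA with MHLBJ, while DPLBJ replicate 1 lay within the range of MHLBJ.

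LCORL, the neighbour of NCAPG, was called in 0 of the 4 breed comparisons by edgeR, with an unadjusted P under 0.05 in 2 of them. In juveniles its pituitary RPKM was 20.72, 22.54 and 29.46 in DPPJ and 16.12, 14.74 and 12.48 in MHPJ. The DP libraries were all higher, by 0.55 on the log2 scale (SE 0.186, adjusted p = 0.106, edgeR). At the adult stage the order was reversed, with 10.84, 16.43 and 21.9 RPKM in DPPA below 20.14, 26.91 and 28.04 RPKM in MHPA apart from a small overlap in RPKM, and with no overlap in CPM (-0.48, SE 0.233, adjusted p = 0.600). The breed effect in the pituitary differed between the stages by 1.05 (SE 0.302, adjusted p = 0.166, edgeR). It was under 1, and so not called, without DPPA replicate 1, DPPJ replicate 3 or MHPJ replicate 3 (0.86, 0.90 and 0.99) and without both hormone-poor adult libraries (0.90).

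In the juvenile long bone LCORL was 13.2, 9.67 and 10.13 RPKM in DPLBJ and 22.31, 18.54 and 22.41 RPKM in MHLBJ. Here the DP libraries were all lower, by -0.78 on the log2 scale (SE 0.247, adjusted p = 0.199, edgeR), which is short of a fold of 2. Scaled by library totals alone the value was -1.01, past the fold threshold. In the adult long bone it was 4.41, 18.82 and 5.35 RPKM in DPLBA and 10.61, 14.86 and 39.49 RPKM in MHLBA (-1.13, SE 0.645, adjusted p = 0.324). DPLBA replicate 2 stood among the MH libraries, and without it LCORL was called at -2.17. The breed effect on LCORL in the juvenile pituitary lay 1.31 above that in the juvenile long bone (SE 0.293, adjusted p = 0.0354, edgeR), with each library left out a value of 1.17 to 1.50. The groups formed an unbroken order from MHPA (25.0) to DPLBA (9.53), each overlapping with the next.

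LCORL was low where NCAPG was high in the pituitary. Over the 12 libraries Pearson's r of their log2 CPM was -0.932 and Spearman's rho -0.909, and r was -0.919 without the 2 libraries farthest from the median in LCORL. DPPA replicate 1 had the lowest LCORL (29.6 CPM) and the highest NCAPG (10.5 CPM) of the pituitary, and the 3 MHPJ libraries came next in both. These 4 libraries were hormone-poor, whereas the hormone-poor MHPA replicate 1 had 55.1 CPM of LCORL and 2.85 CPM of NCAPG, among the hormone-rich libraries. Over the 7 hormone-rich libraries alone, a division made after seeing the data, r was -0.822. The part of the hormone content in this relation was not tested. Over the 12 long bone libraries r was -0.37 and rho -0.455. In the RefSeq annotation of the TB-T2T assembly the spans of the 2 genes overlap. The libraries were directional, but whether reads were counted by strand is not given in the sources used here, so that reads from the shared stretch may be credited to either gene.

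**Figure D4:**
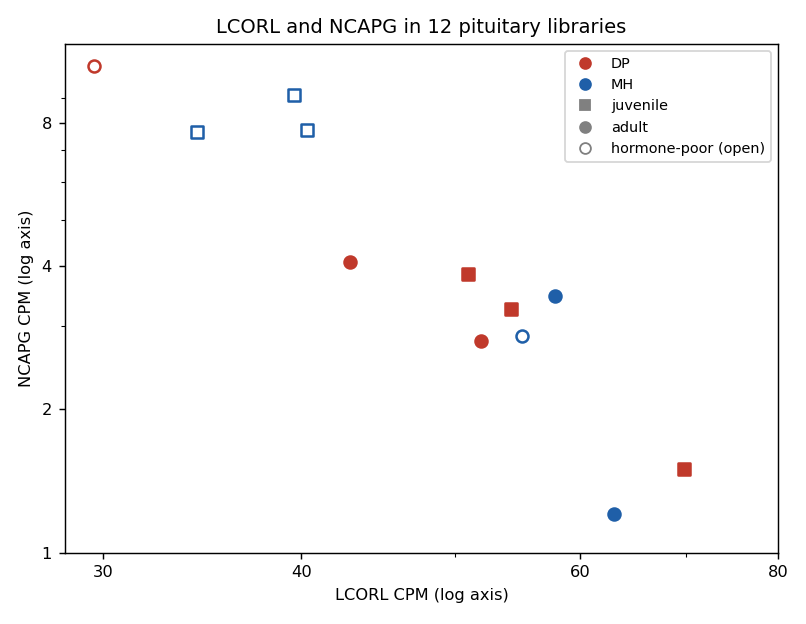
LCORL against NCAPG (CPM, log axes) in the 12 pituitary libraries, squares for juveniles and circles for adults, DPs in red and MHs in blue, open symbols for the 5 hormone-poor libraries (36.1 CPM of hormone genes or less). DPPA replicate 1 has the lowest LCORL (29.6 CPM) and the highest NCAPG (10.5 CPM). The highest LCORL (69.8 CPM) is in DPPJ replicate 3, with 1.50 CPM of NCAPG. The lowest NCAPG (1.21 CPM) is in MHPA replicate 3, with 63.0 CPM of LCORL.

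Genes of Polycomb repressive complex 2 and the LCORL relative LCOR, 12 in all, were mostly near 0 between the breeds. Of the 12, 0 were called in juvenile pituitaries by edgeR (2 had an unadjusted P under 0.05), 1 in adult ones, 3 in the juvenile and 3 in the adult long bone, against 20.3%, 2.93%, 13.8% and 18.3% of all tested genes. EZH2, the methyltransferase of the complex, was higher in DPs in the adult pituitary (1.25) and in the juvenile (2.13) and adult (1.02) long bone, as was its partner PHF19 in the long bone (1.70 at each stage), and JARID2 was higher in the adult long bone (1.28). EZH1, the methyltransferase of resting cells, was lower in the juvenile long bone (-1.02). The median of the list lay between -0.029 and 0.26 in the 4 comparisons.

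TBX3 had the lowest adjusted p of the 6 in the juvenile pituitary. Its RPKM was 6.78, 6.55 and 5.86 in DPPJ and 1.00, 2.06 and 1.51 in MHPJ. The DP libraries were close together and all above the MH libraries, by 1.86 on the log2 scale (SE 0.37, adjusted p = 0.0353, edgeR), called with each library left out (1.56 to 2.19). The adjusted p of edgeR was 0.00331 to 0.149 with 1 library left out, so it did not stay under 0.05 each time. Over 8 alternative settings of edgeR, DESeq2 and limma it was 1.23e-05 to 0.116. All 3 MHPJ libraries were hormone-poor, and the part of that in the difference cannot be told apart from breed. Adult levels of TBX3 were 10.25, 9.11 and 25.37 RPKM in DPPA and 2.83, 13.93 and 8.5 RPKM in MHPA. These groups overlapped (1.01, SE 0.577, adjusted p = 0.648). The hormone-poor adult libraries were DPPA replicate 1, at 10.25 RPKM between the other DPPA libraries, and MHPA replicate 1, at 2.83 RPKM the lowest of MHPA.

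Long bone levels of TBX3 were low and varied within groups, with 4.32, 0.26 and 0.94 RPKM in DPLBJ and 0.85, 0.38 and 1.81 RPKM in MHLBJ. The groups overlapped, and the log2 fold change of 1.02 (SE 1.02, adjusted p = 0.641) rested on DPLBJ replicate 1, without which it was -0.66. The adult values were 2.69, 2.69 and 0.47 RPKM in DPLBA and 0.91, 4.03 and 2.90 RPKM in MHLBA (-0.39, SE 0.698, adjusted p = 0.775). In the order of mean RPKM, DPPA (14.9), MHPA (8.42) and DPPJ (6.4) came first and the long bone groups and MHPJ followed, between 2.61 and 1.01. Each group overlapped with the next except DPPJ with MHLBA, and MHPA replicate 1 lay within the range of the long bone groups.

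Other T-box genes were called at shares near those of all tested genes. In the juvenile pituitary 2 of 8 tested were called (20.3% of all genes), both higher in DPs, TBX19 (6.58), which specifies the ACTH-producing cells of the anterior pituitary and is itself on the list of hormone cell genes, and TBX20 (5.25), known from the heart. TBX20 was low, at 0.623 ± 0.257 RPKM in DPPJ and 0.01 ± 0.0173 RPKM in MHPJ (SD, n = 3). It passed the filter on low reads through DPPJ, so its call is not independent of the filter. Among adult pituitaries 0 of 8 were called by edgeR, and 0 had an unadjusted P under 0.05. In the long bone TBX5, the forelimb T-box gene and the neighbour of TBX3, was higher in DPs by 4.19 in juveniles, with overlap, and by 3.75 in adults (adjusted p = 0.0498, edgeR), without overlap. TBX2, the closest relative of TBX3, was higher in the adult DP long bone by 1.32. These were 1 of 10 T-box genes tested in juveniles (13.8% of all genes) and 2 of 10 in adults (18.3%). Which bone, and from which limb, gave the epiphysis is not given in the sources used here.

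ZFAT and LASP1 had the narrowest ranges over the 24 libraries, and neither was called in any of the 4 breed comparisons. ZFAT was 5.14, 4.66 and 4.57 RPKM in DPPJ and 4.59, 4.62 and 3.85 RPKM in MHPJ (log2 fold change -0.054, SE 0.178, adjusted p = 0.857, edgeR; 0.039 when scaled by library totals alone). Adult pituitary levels were 3.57, 4.06 and 4.64 RPKM in DPPA and 6.52, 8.97 and 7.41 RPKM in MHPA. The adult DP libraries were all lower, by -0.76 on the log2 scale (SE 0.173, unadjusted P = 0.00447, adjusted p = 0.459), and -0.72 (SE 0.171) without both hormone-poor libraries. The breed effect on ZFAT in the pituitary differed between the stages by 0.72 (SE 0.217, adjusted p = 0.166).

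Long bone levels of ZFAT were 2.87, 3.86 and 3.67 RPKM in DPLBJ and 4.51, 3.5 and 7.12 RPKM in MHLBJ (-0.38, SE 0.334, adjusted p = 0.601, edgeR). It was 5.80, 2.71 and 5.64 RPKM in DPLBA and 3.27, 5.87 and 9.79 RPKM in MHLBA (-0.45, SE 0.351, adjusted p = 0.465). Both pairs overlapped. The groups formed an unbroken order from MHPA (7.63) to DPLBJ (3.47).

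LASP1 was 78.86, 77.2 and 62.95 RPKM in DPPJ and 78.95, 43.97 and 59.91 RPKM in MHPJ (log2 fold change 0.084, SE 0.223, adjusted p = 0.819, edgeR; -0.064 without MHPJ replicate 2, the library with muscle genes). Adult levels were 102.57, 81.56 and 97.59 RPKM in DPPA and 52.01, 74.97 and 66.86 RPKM in MHPA. The adult DP libraries were all higher, by 0.70 (SE 0.171, unadjusted P = 0.00615, adjusted p = 0.478), and by 0.52 (SE 0.135) without both hormone-poor libraries. This is a fold below 2.

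In the juvenile long bone LASP1 was 94.05, 64.2 and 126.51 RPKM in DPLBJ and 82.15, 147.78 and 73.73 RPKM in MHLBJ (0.023, SE 0.354, adjusted p = 0.982, edgeR; -0.16 when scaled by library totals alone). In the adult long bone it was 157.68, 69.17 and 157.1 RPKM in DPLBA and 33.64, 107.09 and 82.8 RPKM in MHLBA (0.76, SE 0.367, adjusted p = 0.252). DPLBA replicates 1 and 3 were the highest of all 24 libraries and MHLBA replicate 1 the lowest, a library with a TMM factor of 0.598. Without DPLBA replicate 2 or MHLBA replicate 2 the gene was called, at 1.05 and 1.04. The groups formed an unbroken order from DPLBA (128) to MHPJ (60.9).

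Of 12 relatives and actin or focal adhesion partners of LASP1, 3 were called in juvenile and 0 in adult pituitaries by edgeR (2 in adults with an unadjusted P under 0.05), 3 in the juvenile and 3 in the adult long bone, where the shares of all tested genes were 20.3%, 2.93%, 13.8% and 18.3%. NEB (-5.37) and NRAP (-7.25), giant and scaffold proteins of striated muscle, were lower in the juvenile DP pituitary beside the muscle genes of MHPJ replicate 2, as was NEBL (-1.25). NEB (-4.14) and NRAP (-2.60) were also lower in the juvenile DP long bone, where the muscle genes summed to 23.4 to 486 CPM in MHLBJ and to 5.43 to 6.72 CPM in DPLBJ. The part of muscle in these values was not tested. LPP, a LIM protein of focal adhesions, was lower in DPs in the juvenile (-1.49) and adult (-1.30) long bone, and in adults VASP, an actin elongation factor, was higher (1.30) and NEBL lower (-1.54).

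The stages were compared as juvenile minus adult within a breed. In the pituitary TBX3 was lower in juveniles in DPs (-1.30, SE 0.374, adjusted p = 0.419, edgeR; 3.56% of all tested genes were called) and in MHs (-2.18, SE 0.604, adjusted p = 0.365; 7.74% called). The stages did not overlap for TBX3 in either breed, as for 21.8% of all tested genes in DPs and 17.6% in MHs. The DP value was -0.77 without DPPA replicate 3, which had 25.37 RPKM. NCAPG was higher in juveniles in the MH pituitary (1.73, SE 0.481, adjusted p = 0.365), without overlap, and in DPs its value was -1.05 (SE 0.612, adjusted p = 0.495). The 3 MHPJ libraries and 1 of 3 MHPA libraries were hormone-poor. In the DP long bone NCAPG was higher in juveniles by 2.27 (SE 0.945, adjusted p = 0.988; 3.14% called), with overlap, and the call was lost without DPLBJ replicate 2 or 3 or DPLBA replicate 1 or 3 (1.47, 2.25, 2.11 and 1.95). In the MH long bone 0 of the 5 members tested were called (2.91% of all genes), and 0 of 5 had an unadjusted P under 0.05, while DESeq2 called 1, TBX3. HMGA2 had too few reads to be tested between the stages in the DP pituitary and the MH long bone.

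The tissues were compared as pituitary minus long bone within a breed and stage. Both tissues came from the same horses, but which libraries share a horse is not given in the sources used here, so that these tests and the interactions with tissue treated the libraries as independent. In DPs NCAPG was lower in the pituitary in juveniles (-5.92, SE 1.1, adjusted p = 0.00824, edgeR; 36.8% of all tested genes were called) and adults (-2.63, SE 0.652, adjusted p = 0.0174; 39.1%). HMGA2 was lower there as well, by -3.36 (SE 0.805, adjusted p = 0.0200) in juveniles and -2.96 (SE 0.86, adjusted p = 0.0306) in adults. In juvenile MHs HMGA2 went the other way, with higher levels in the pituitary (2.0, SE 0.574, adjusted p = 0.0459; 32.7% called), and in adult MHs it was not tested. The MHPJ libraries were all hormone-poor. HMGA2 passed the filter on low reads here largely through the tissue in which it was higher. Its tissue calls are therefore not independent of the filter. The MH call was lost without MHLBJ replicate 2 (1.74) and with the replicate number as a block (1.95, SE 0.732, adjusted p = 0.133). TBX3 was higher in the pituitary of adult DPs (2.76, SE 0.703, adjusted p = 0.0191), and NCAPG was lower in the pituitary of adult MHs (-1.79, SE 0.491, adjusted p = 0.0545; 27.1% called). LCORL was higher in the pituitary of juvenile DPs (0.85, SE 0.251, adjusted p = 0.0411, edgeR), without overlap but short of a fold of 2. In juvenile MHs, whose pituitaries were hormone-poor, it was lower there (-0.48, SE 0.172, adjusted p = 0.0801, edgeR). Its adult values were 0.57 in DPs and -0.047 in MHs. ZFAT and LASP1 were called in 0 of the 4 tissue comparisons by edgeR, and in 0 by DESeq2. LASP1 had values of -0.47 to -0.68 in them, with an unadjusted P under 0.05 in juvenile DPs (adjusted p = 0.106).

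Among 14 other body size genes of horses, dogs and cattle, 7 of 12 tested were called in juvenile and 0 of 11 in adult pituitaries by edgeR (2 in adults with an unadjusted P under 0.05), 3 of 11 in the juvenile long bone and 2 of 11 in the adult long bone, against 20.3%, 2.93%, 13.8% and 18.3% of all tested genes. Juvenile pituitaries differed in IRS4, an adaptor of insulin signalling that was higher in DPs by 6.47, and in ADAMTS17 (-2.70), a secreted protease, and IGF1 (-1.49), the main mediator of growth hormone, which were lower. GHR, the growth hormone receptor, was higher there (1.15), HHIP, an inhibitor of hedgehog signalling (-3.52), and STC2, a secreted glycoprotein (-3.80), were lower with overlap, and PLAG1 is given above. All MHPJ libraries were hormone-poor, so breed and hormone content cannot be told apart in these juvenile pituitary values. ADAMTS17 and STC2 also varied within MHPJ (12.3 ± 10.3 and 5.47 ± 8.36 RPKM, SD, n = 3). In the long bone ACAN, the main proteoglycan of cartilage, was higher in DPs by 7.67 in juveniles and 4.50 in adults, and HHIP by 3.96 in juveniles, beside the higher sum of the cartilage genes given above, of which ACAN is one. GHR was lower in the juvenile DP long bone, by -1.44 (42.1 ± 19.9 against 129 ± 11.7 RPKM, SD, n = 3), without overlap. IGF1R, the receptor of IGF1, was lower in the adult DP long bone (-2.13).

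Finally, the genes with the most similar pattern were sought for each member among genes with a symbol and a median of at least 20 reads, as Pearson's r of log2 CPM over the 12 libraries of a tissue. In the long bone CENPI (r = 0.988, rho = 0.944), MND1 (0.987, 0.937) and AURKA (0.979, 0.930) were most like NCAPG. CENPI encodes a centromere protein, AURKA a mitotic kinase and MND1 a meiotic recombination protein. Without DPLBJ replicates 2 and 3 their r was 0.928 to 0.956. For HMGA2 in the long bone the genes were KCNK6 (0.943), OSR1 (0.921) and AK5 (0.905), where OSR1 is a transcription factor of limb connective tissue. TBPL1 (0.949), TMOD2 (0.898) and HMCN1 (0.895) were most like LCORL, UBE2V1 (0.931), DENND2A (0.909) and RAB7A (0.898) most like LASP1, CMIP (0.891), WDTC1 (0.843) and JADE2 (0.833) most like ZFAT, and MOXD1 (0.844), ARMC10 (0.823) and NDRG3 (0.822) most like TBX3.

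In the pituitary the most similar genes were HELQ (0.938), UAP1L1 (0.933) and RNF138 (0.932) for LCORL, and SLITRK1 (0.922), KIAA1549L (0.906) and PCNT (0.890) for NCAPG, of which SLITRK1 is a membrane protein of neurons and PCNT a centrosome protein. They were CACNA1S (0.896), SH2B3 (0.894) and ABT1 (0.892) for HMGA2, UBTD1 (0.912), SLC25A30 (0.865) and SEL1L (0.854) for ZFAT, TTC33 (0.927), YLPM1 (0.912) and TMEM52 (0.905) for LASP1, and POF1B (0.933), C7 (0.929) and TIMELESS (0.921) for TBX3. The gene lists of the members in the pituitary and in the long bone shared 0 genes. Such correlations over 12 libraries that share breed, stage and hormone content describe these libraries only.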

How the data were processed

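Total RNA was depleted of ribosomal RNA (RiboMinus) and sequenced as directional libraries. The labels give a NextSeq 500 with reads of 151 nt in pairs, and the paper another instrument with single reads. The authors removed reads under 30 bases (Btrim) and used the horse genome EquCab 3.0. The paper names Salmon 1.1.0 and the submitters' processing notes name TopHat2 and edgeR, without versions, so which program gave the deposited values, and whether strand was used, is not settled. The authors deposited whole read counts per gene without normalization, and RPKM values per gene. The RPKM of the 6 genes followed from their reads and lengths within 1.34%, with a library total 1.23 to 1.44 times the reads on genes.

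The counts of each pair of groups were fitted with edgeR 4.0.16 (R 4.3.3) after TMM scaling and filterByExpr with a minimum count of 10, using the quasi-likelihood test, over all genes. The standard error is the size of the log2 fold change over the root of F. The genes were always named. For each gene and tissue the 3 genes of highest r were named, and of each list the called genes, of the proliferation genes only examples. CPM values use TMM factors over all 24 libraries, and correlations an offset of 0.5. The members and lists were chosen with earlier results of these data known. Alternatives were RLE or no scaling, no filter, DESeq2 1.42.0, limma 3.58.1 on log2(RPKM + 1) and log2(RPKM + 0.1), all libraries fitted together, the replicate number as a block, an adjusted p under 0.05 and each library left out; leaving out both hormone-poor adult libraries and the interaction of breed and tissue were treated likewise. The fits were tested on simulated data. The 3 libraries of a group were separate libraries of separate animals and differed beyond sampling noise (lowest chi-square per gene 37.6). With 3 against 3, an exact permutation test could reach no two-sided p under 0.1, so none was used. In the adult pituitary, same-numbered libraries of the breeds deviated together (r = 0.638, 0.524 and 0.365). Replicate 1 was the hormone-poor library in both breeds (36.1 CPM of hormone genes in DPPA and 1.32 CPM in MHPA). The labels tie no number to an animal or day, so the number is not a known pairing. Names of neighbouring genes came from RefSeq (TB-T2T). Sequences and coordinates were not used here.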

Additional observations from a re-analysis of the deposited data

Results flagged for a closer look

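The breed effect of 4 genes differed between stages or tissues by the interaction test of edgeR, at an unadjusted P under 0.05. In the pituitary, juvenile minus adult, the breed effect (DP minus MH) differed by 1.05 for LCORL, -2.78 for NCAPG and 0.72 for ZFAT on the log2 scale, each with an adjusted p of 0.166. In juveniles, pituitary minus long bone, it differed by 1.31 for LCORL (adjusted p = 0.0354), -5.73 for NCAPG (adjusted p = 0.0292) and -5.39 for HMGA2 (adjusted p = 0.0258), and in adults by -5.79 for HMGA2 (adjusted p = 0.114). Of all tested genes, 15.7% had an interaction with stage in the pituitary with P under 0.05 and over 1 in size. For the interaction with tissue the share was 22% in juveniles and 13.5% in adults. The ZFAT value was under 1 in size. The juvenile MH pituitaries were all hormone-poor, and their part in the differences that rest on them was not tested. The adult difference of HMGA2 was -6.06 (SE 1.47) without both hormone-poor adult libraries. For HMGA2 the interaction with tissue was added after the opposite directions had been seen. It passed the filter on low reads largely through its higher groups, so its interactions are not independent of the filter.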

How the results depend on the processing

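Among the alternatives that kept all libraries or left out a pair of them, 189 of 198 breed values of single genes, 35 of 40 stage values, 86 of 88 tissue values, 37 of 44 interactions of breed and stage and 33 of 33 of breed and tissue kept their direction and their side of the threshold. Requiring an adjusted p under 0.05 left 1 of the 6 genes between the breeds in the juvenile pituitary and 0 in the adult pituitary, the juvenile long bone and the adult long bone, 0 between the stages in DP pituitary, MH pituitary and DP long bone, 0 between the tissues of adult MHs, and 0 for the interactions with stage in the pituitary and with tissue in adults. On log2(RPKM + 1) with limma, 0 genes were called between stages in the DP pituitary and the DP long bone, 1 in the MH pituitary, and 4 and 0 between tissues in juvenile DPs and adult MHs. On log2(RPKM + 0.1) it was 0 for the DP long bone stages and 4 for juvenile DP tissues. DESeq2 called 1 gene, TBX3, between MH long bone stages, 2 between adult MH tissues and 1, NCAPG, for the interaction with stage in the long bone. Adult MH tissues also gave 2 with library totals alone, without the filter and with all libraries together. The interaction with stage in the pituitary gave 1 with all libraries together and 1, NCAPG, without both hormone-poor libraries.

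With the replicate number as a block, HMGA2 stayed called in the adult pituitary, where same-numbered libraries deviated together (-2.41, SE 0.828, adjusted p = 0.357, edgeR). In all comparisons same-numbered libraries are known to share only a number, although the tissues came from the same horses. The block called 0 genes between DP long bone stages and 0 between juvenile MH tissues, and 2 between adult MH tissues. It changed none of the other counts by over 1.5 times. The juvenile interactions with tissue of LCORL, NCAPG and HMGA2 stayed called, with an adjusted p of 0.0699, 0.0580 and 0.0611 under the block, no longer under 0.05.

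Values near 0 changed sign. ZFAT in the juvenile pituitary was 0.039, 0.12 and 0.14 with library totals alone, log2(RPKM + 1) and log2(RPKM + 0.1), LASP1 in the juvenile long bone was -0.16, -0.075 and -0.076 with the same and -0.013 with all libraries together, and the interaction of HMGA2 with stage in the long bone was -0.38, -0.27 and -0.30 with library totals alone, log2(RPKM + 0.1) and the block. Leaving out 1 library at a time gave a range of -0.12 to 0.042 for ZFAT and -0.064 to 0.21 for LASP1 in the juvenile pituitary, -0.19 to 0.40 for LASP1 and -0.66 to 1.72 for TBX3 in the juvenile long bone, -0.75 to 0.09 for TBX3 in the adult long bone, and -0.13 to 1.27 and -0.79 to 0.96 for HMGA2's interaction with stage in the pituitary and long bone. The counts of called genes ranged so from 2 to 3 and 0 to 1 (breeds, juvenile and adult pituitary), 2 to 2 and 2 to 4 (breeds, juvenile and adult long bone), 0 to 1, 2 to 2, 0 to 2 and 0 to 1 (stages, DP and MH pituitary, DP and MH long bone), 2 to 4, 0 to 1, 3 to 4 and 1 to 3 (tissues, juvenile DP and MH, adult DP and MH), 1 to 2 and 0 to 2 (interaction with stage, pituitary and long bone) and 3 to 4 and 1 to 2 (interaction with tissue, juvenile and adult). The cause was not tested.

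Library totals alone moved the median log2 fold change of all genes from -0.013 to -0.22 in the adult pituitary and from 0.053 to -0.17 in the juvenile long bone, and the DEGs higher and lower in DPs from 252 and 169 to 131 and 349 and from 1146 and 753 to 851 and 1152. HMGA2 and NCAPG kept their breed directions under this scaling. Depth limits HMGA2 most: groups with 2 to 8 reads per library leave its size uncertain.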
